A study of Mus musculus with 38 samples.

Results

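The 8 mesenchymal transcription factors described here are Snai1, Snai2, Twist1, Twist2, Zeb1, Zeb2, Prrx1 and Prrx2. They were chosen by name as 4 pairs of closely related genes. All 8 of 8 were found once among the 35976 gene symbols of the expression table of the time courses, among the 37108 of the table of factor sets and among the 20695 genes of the single-cell count table. The study has 38 samples of mouse cells: 23 bulk RNA-seq libraries, 2 single-cell RNA-seq samples, 9 ATAC-seq libraries and 4 Cut&Tag libraries. Bulk RNA-seq cells were made from embryonic fibroblasts (MEFs) of embryonic day 13.5, taken without regard to sex from embryos of male OG2 and female 129S4/SvJaeJ mice. Reprogramming factors were delivered by pMXs retrovirus, so the factors were driven by the vector in whichever cells were infected. The cells were infected in serum medium and then moved to the reprogramming medium iCD3 with or without BMP4. The MEF library of ATAC-seq stands for cells without a delivered factor. The library of day 0 of JGES already listed Sall4 at 650 FPKM (a level per length of the gene, defined with the bulk values). Libraries of cells given no Sall4 listed it at 2.09 to 30.3. JGES stands for Jdp2, Glis1, Esrrb and Sall4. It was followed without BMP4 (BMP4-) on days 0, 1, 3, 5 and 7 and with BMP4 at 10 ng/ml (BMP4+) on days 1, 3, 5 and 7. JGE lacks Sall4, JGEO carries Oct4 in its place and JGESO carries all 5 factors, each on day 7 with and without BMP4. SALL4-WT and SALL4-delN12 cells received 1 factor alone, either the full protein or a form without the N-terminal peptide that binds the NuRD deacetylase complex, and were taken on days 1, 5, 9 and 11 for RNA-seq and ATAC-seq and on day 6 for Cut&Tag. The RNA-seq cultures of both SALL4 forms had no BMP4. Each condition has 1 sample. No difference below could be set against a spread between replicates, and no p-value is given.

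Fibroblasts are mesenchymal cells: they lie apart from each other in a collagen-rich matrix and lack the E-cadherin junctions of an epithelium. The 8 factors belong to the regulators of this state. SNAI1 and SNAI2 (Slug) are zinc-finger repressors that bind E-boxes of the form CACCTG, among others in the promoter of Cdh1, the gene for E-cadherin. ZEB1 and ZEB2 carry 2 clusters of zinc fingers around a homeodomain and bind the same E-boxes. TWIST1 and TWIST2 are basic helix-loop-helix proteins that bind CANNTG as dimers with E proteins such as TCF3, TCF4 and TCF12. PRRX1 and PRRX2 are paired-related homeobox proteins of limb, facial and connective-tissue mesenchyme. Reprogramming of fibroblasts to pluripotent or extraembryonic epithelial cells passes through the opposite change, the mesenchymal-to-epithelial transition. BMP4 is a secreted ligand of the TGF-beta superfamily, and the study asked how it redirects JGES cells between pluripotent and other fates through SALL4 and NuRD.

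The 250 bases before a RefSeq start (GRCm38.p6) are shown for the 5 members with 1 window each, to show the sequence before a start, which are Snai1, Twist1, Twist2, Prrx1 and Prrx2. Zeb2, with 4 windows, is not printed. In all, 6 of the 8 members matched the table of promoters. The letters searched, on both strands, were CACCTG (an E-box of SNAI and ZEB proteins), CANNTG (any E-box, which includes the former) and ATATT (the AT-rich element of SALL4). Capitals mark CACCTG in Snai1 and ATATT in Prrx2. The other 3 windows hold none of the searched letters.
Snai1 promoter, chr2:167537945-167538194, plus strand: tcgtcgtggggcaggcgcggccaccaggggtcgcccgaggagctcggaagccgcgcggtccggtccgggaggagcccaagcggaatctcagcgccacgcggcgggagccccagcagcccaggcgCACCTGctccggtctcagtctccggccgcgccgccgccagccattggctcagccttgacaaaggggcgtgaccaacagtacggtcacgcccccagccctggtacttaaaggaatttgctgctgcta
Twist1 promoter, chr12:33957421-33957670, plus strand: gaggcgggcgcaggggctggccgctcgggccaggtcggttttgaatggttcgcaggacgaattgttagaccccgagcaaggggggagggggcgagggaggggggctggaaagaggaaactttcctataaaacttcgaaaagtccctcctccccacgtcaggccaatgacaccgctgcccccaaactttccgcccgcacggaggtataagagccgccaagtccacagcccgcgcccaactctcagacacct
Twist2 promoter, chr1:91801211-91801460, plus strand: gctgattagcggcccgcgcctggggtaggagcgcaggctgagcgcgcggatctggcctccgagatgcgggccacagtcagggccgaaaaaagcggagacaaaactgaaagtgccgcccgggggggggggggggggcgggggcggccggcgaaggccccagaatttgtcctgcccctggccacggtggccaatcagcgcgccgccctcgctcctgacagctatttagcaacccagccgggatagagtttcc
Prrx1 promoter, chr1:163313651-163313900, minus strand: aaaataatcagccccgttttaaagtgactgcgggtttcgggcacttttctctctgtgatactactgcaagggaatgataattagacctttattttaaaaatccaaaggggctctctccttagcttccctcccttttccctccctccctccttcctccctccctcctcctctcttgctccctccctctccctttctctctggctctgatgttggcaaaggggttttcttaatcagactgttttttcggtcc
Prrx2 promoter, chr2:30845117-30845366, plus strand: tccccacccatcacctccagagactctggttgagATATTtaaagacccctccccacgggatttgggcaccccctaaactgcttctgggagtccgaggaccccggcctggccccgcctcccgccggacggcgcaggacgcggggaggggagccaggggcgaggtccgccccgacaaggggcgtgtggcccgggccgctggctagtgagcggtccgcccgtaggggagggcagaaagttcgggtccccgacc

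The Snai1 window holds 1 CACCTG, which begins 126 bases before the start (position -126), and no other E-box. Among all 32851 RefSeq promoter windows of the same length, 17.2% held CACCTG, 66.2% held CANNTG and 23.3% held ATATT. The GC content of the windows was 70% for Snai1 and Prrx2, 68.8% for Twist2, 62.4% for Twist1 and 47.6% for Prrx1. The Prrx1 window held 4 CpG dinucleotides, against 27 in Snai1, 23 in Twist2, 21 in Prrx2 and 18 in Twist1. The RefSeq start of Prrx2 lies inside the gene as GENCODE draws it, and the peak results are placed by GENCODE starts, which need not be those of the windows. A match is a description of letters and not of a bound site.

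The loci are given on mm10 with the GENCODE vM21 annotation. Snai1 (ENSMUSG00000042821) lies at chr2:167538195-167542814 on the plus strand, Snai2 (ENSMUSG00000022676) at chr16:14705852-14709385 on the plus strand and Twist1 (ENSMUSG00000035799) at chr12:33957671-33959829 on the plus strand. These are short genes of 4620, 3534 and 2159 bp with 1 annotated start each. Twist2 (ENSMUSG00000007805) lies at chr1:91801461-91848028 on the plus strand, Prrx2 (ENSMUSG00000039476) at chr2:30834972-30881251 on the plus strand and Prrx1 (ENSMUSG00000026586) at chr1:163245119-163313710 on the minus strand, with 2, 4 and 5 annotated starts. Zeb1 (ENSMUSG00000024238, chr18:5591860-5775467, plus strand) and Zeb2 (ENSMUSG00000026872, chr2:44983632-45117395, minus strand) are the longest, at 183608 and 133764 bp, with 11 and 29 annotated starts. A gene on the opposite strand overlaps Twist2 (Gm29100), Zeb1 (Gm10125), Zeb2 (Zeb2os) and Prrx1 (Gm20471), and reads of such a partner cannot be told apart from those of the member where counting did not use strand. Zeb2os was listed at an FPKM of 0 to 5.52 in the time courses.

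Bulk levels are FPKM values (fragments per kilobase, scaled to the library), which allow levels of different genes to be compared per length. A difference between 2 libraries is given as the difference of log2(FPKM + 1), and a gene is said to have risen or fallen where this difference passed 2-fold. Calls were limited to genes that reached an FPKM of 1 in one of the libraries compared. Between 12030 and 14621 genes reached an FPKM of 1 per library, and the depth behind the FPKM values is unknown. Sall4 was listed at 290 to 549 in SALL4-WT, 428 to 971 in SALL4-delN12, 194 to 712 in JGES and 174 to 213 in JGESO, against 2.09 and 6.23 in JGE and 28.9 and 30.3 in JGEO, so the labels that include Sall4 have the higher levels. Fibroblast genes were high on day 0 of JGES (Col1a1 at 524, Vim at 695, Thy1 at 73.5), and Cdh1 was listed at 10.8 there. The JGES libraries of day 7 stand in both tables, where the median ratio of the factor-set copy to the time-course copy was 0.975 (BMP4-) and 0.978 (BMP4+).

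Across the 17 libraries of the time courses the 8 factors differed in level and in how far they moved. Prrx2 had the widest range, from 1.81 in JGES BMP4- day 7 to 218 in SALL4-WT day 5, which is 120-fold. Twist2 ranged 63.0-fold, from 3.42 in JGES BMP4+ day 7 to 215 in SALL4-delN12 day 1. Snai2 ranged 18.1-fold (4.68 to 84.7) and Prrx1 11.03-fold (4.29 to 47.3). The other 4 members moved less. Zeb2 ranged 6.31-fold (1.76 to 11.1), Twist1 5.74-fold (21.4 to 123) and Snai1 4.90-fold (30.7 to 150). Zeb1 had the narrowest range, 2.59-fold, from 5.42 to 14.0. By median level the order was Prrx2 (63.0), Snai1 (62.1), Twist1 (45.9), Twist2 (43.0), Snai2 (18.6), Prrx1 (10.5), Zeb1 (6.97) and Zeb2 (4.24). The medians of Prrx2 and Snai1, and those of Twist1 and Twist2, lie much closer together than the ranges over libraries are wide. Both Zeb genes were at or under 14.0 in every library.

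In JGES cells without BMP4, 5 of the 8 factors fell between day 0 and day 7 and none rose. Over all genes tested, 10.4% fell and 22.2% rose in this comparison. The median difference of the 8 was -1.47, against 0.26 over all genes. The largest falls were those of Prrx2 and Twist2. Prrx2 was listed at 63.0 on day 0 and at 6.62, 1.88, 3.21 and 1.81 on days 1, 3, 5 and 7, a difference of -4.51 at day 7. Its paralog Prrx1 went from 25.2 to 8.93, 5.26, 5.63 and 5.58 (-1.99). For both, the larger step came before day 1. Twist2 was at 43.0, 34.1, 6.47, 6.13 and 7.71 over the same days (-2.34), and its drop came between days 1 and 3. Twist1, which binds the same E proteins, was at 42.0, 35.1, 21.4, 28.4 and 29.7 and did not pass 2-fold (-0.49). Zeb2 was at 8.41, 2.38, 2.18, 2.97 and 1.76 (-1.77). Zeb1 was at 14.0, 7.77, 6.69, 6.69 and 8.05 (-0.73). In the Snai pair, Snai2 went from 28.7 to 4.68 and 5.32 and stood at 12.2 and 12.3 on days 5 and 7, 2.33 times lower than day 0, while Snai1 stayed between 30.7 and 53.0 (-0.62). Within each of the 4 pairs, then, 1 gene (Snai2, Twist2, Zeb2, Prrx2) fell past 2-fold by day 7, and of their partners Prrx1 alone did so too. Bulk values cannot tell fewer cells of a type from less RNA per cell, here and below.

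At day 1 without BMP4, 4 of the 8 had already fallen (Prrx2, Snai2, Zeb2 and Prrx1), where 9.28% of all genes fell and 11.8% rose. The differences from day 0 were -3.07, -2.39, -1.48 and -1.40. With BMP4, 2 had fallen at day 1, beside 9.05% of all genes lower and 9.78% higher. These were Prrx2 (-1.33) and Snai2 (-1.23), while Prrx1 (25.2 and 12.1) was just short of the threshold. At a call of 1.5-fold, Prrx1, Zeb2 (-0.84) and Zeb1 (-0.80) were also lower with BMP4, and Zeb1 (-0.78) without it. No order of the arms is therefore read from these counts. Both arms share the day 0 library, and no library of day 0 with BMP4 was analysed here.

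With BMP4, 4 of the 8 factors were higher at day 7 of JGES and none was lower past 2-fold, where 10.3% of all genes rose and 13.8% fell. Prrx2 was listed at 1.81 without and 47.4 with BMP4, 26.2 times as high (4.11 on the log2 scale). Zeb2 was at 1.76 and 6.12 (1.37), Snai2 at 12.3 and 32.9 (1.35) and Snai1 at 34.1 and 70.6 (1.03). These 4 come from 3 of the pairs. The Twist genes took opposite signs, with Twist1 at 29.7 and 46.9 (0.64) and Twist2 at 7.71 and 3.42 (-0.98), neither past 2-fold on the log2(FPKM + 1) scale. With a pseudocount of 0.1 Twist2 was past it (-1.15). Zeb1 (8.05 and 6.97) and Prrx1 (5.58 and 4.84) differed by -0.18 and -0.17.

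The difference in Prrx2 was present on every day sampled. It was 24.5 with BMP4 and 6.62 without on day 1, 41.2 and 1.88 on day 3 and 41.3 and 3.21 on day 5, so the levels with BMP4 did not overlap those without. Snai2 with BMP4 was 11.6, 24.99, 24.3 and 32.9 on days 1, 3, 5 and 7, above the same day without BMP4 each time, with differences of 1.15, 2.04, 0.94 and 1.35. Snai1 with BMP4 was 63.9, 52.0, 62.1 and 70.6, and all 4 values lay above all 4 without BMP4 (30.7 to 41.9). Zeb2 with BMP4 was 4.24, 6.08, 4.83 and 6.12, again above all 4 values without (1.76 to 2.97). Twist1 was higher with BMP4 on days 3, 5 and 7 and not on day 1 (32.0 against 35.1). Twist2 with BMP4 was 29.3, 3.74, 6.02 and 3.42, below the same day without BMP4 each time, but the day 5 difference of -0.02 became 0.12 when scaled to the median ratio of all genes. On day 1, 2 members rose (3.75% of all genes rose and 5.72% fell), on day 3 it was 3 (6.81% rose, 8.99% fell) and on day 5 it was 1 (8.78% rose, 13.2% fell), or 3 when scaled to the median ratio of all genes. No member fell on any of the 4 days. On day 5, Snai1 (0.99) and Snai2 (0.94) missed the threshold narrowly. These 4 comparisons use different libraries on each day, but they follow 1 experiment. How many of all genes lay apart between the arms without overlap was not counted.

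**Figure D1:**
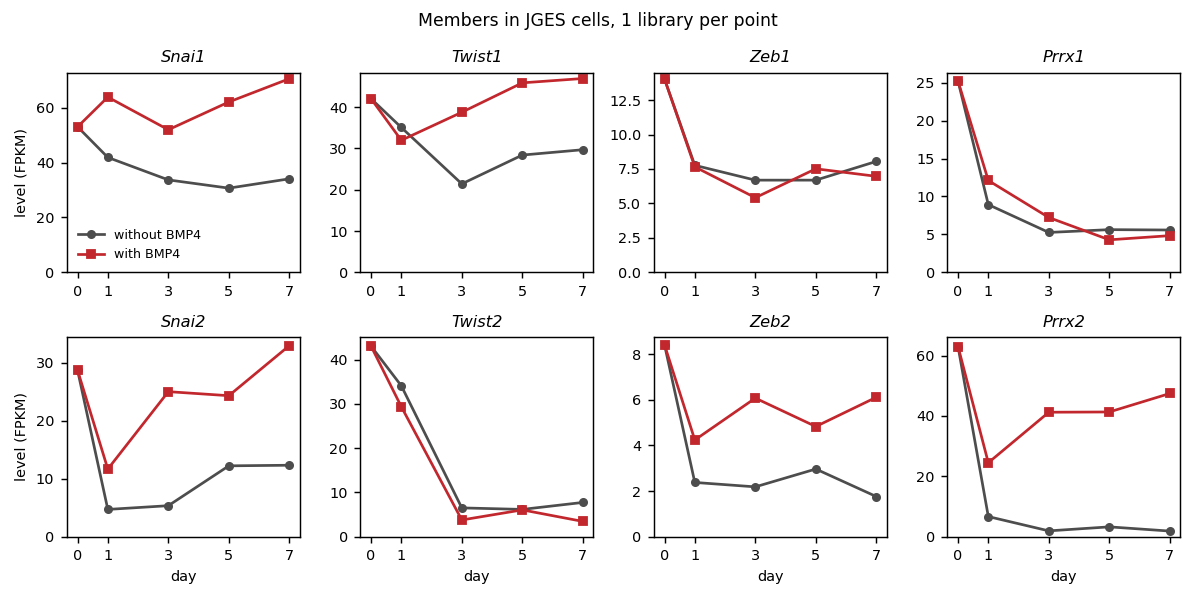
FPKM (vertical axis, linear, from 0) of each of the 8 factors against day of JGES reprogramming (horizontal axis), with BMP4- and BMP4+ as separate lines that share the day 0 library and 1 library per point. Prrx2 drops from 63.0 to 1.81 without BMP4 and stands at 47.4 with it at day 7, while Twist2 drops in both.

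Set against day 0, the JGES cells with BMP4 had 2 of the 8 factors lower at day 7 and none higher, beside 9.47% of all genes lower and 17.5% higher. The 2 were Twist2, from 43.0 to 3.42 (-3.32), and Prrx1, from 25.2 to 4.84 (-2.17). The other 6 lay between -0.91 (Zeb1) and 0.41 (Snai1). Prrx2 differed by -0.40 and Zeb2 by -0.40 from day 0, where the cells without BMP4 differed by -4.51 and -1.77. Both comparisons take the same day 0 library as their start, and a shift in that library would move both.

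The factor sets of day 7 ask whether the response to BMP4 needs Sall4 or Oct4. In JGE cells, which lack viral Sall4, 2 of the 8 factors rose with BMP4 and none fell, beside 4.28% of all genes higher and 4.78% lower. Prrx2 was listed at 14.4 without and 33.5 with BMP4 (1.17), and Snai1 at 16.3 and 35.1 (1.06). The level of Prrx2 without BMP4 was thus 14.4 in JGE and 1.77 in the JGES library listed beside it, while the levels with BMP4 were 33.5 and 46.4. The JGES libraries are those of the time course. Whether they were made together with the other sets is not given in the sources used here. In JGEO cells no factor passed 2-fold in either direction, where 2.26% of all genes rose and 1.95% fell, and the largest difference was that of Twist2 (30.2 and 17.8, -0.73). In JGESO cells 1 of 7 factors tested rose and none fell, beside 5.29% and 3.52% of all genes. That was Prrx2, at 57.8 and 132 (1.18). Zeb2 was under an FPKM of 1 in both JGESO libraries (0.426 and 0.662) and was not tested. Snai1, higher with BMP4 in JGE and JGES, was listed at 109 without and 68.6 with BMP4 in JGESO (-0.65). The differences between factor sets in the response were not tested, since each rests on 4 libraries with no replicate.

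Without BMP4, the sets themselves differed. Against JGE, JGES had 3 of the 8 lower and none higher (16.9% of all genes lower, 20.1% higher). These were Prrx2 (14.4 and 1.77, -2.47), Prrx1 (22.6 and 5.44, -1.87) and Twist1 (70.8 and 28.9, -1.26). Snai1 stood at 16.3 and 33.2 (0.98). JGEO had 2 lower and 1 higher than JGE (11.9% and 10.2% of all genes). Prrx1 (22.6 and 9.40, -1.18) and Snai2 (11.04 and 4.597, -1.10) were lower and Twist2 (12.4 and 30.2, 1.21) was higher. JGESO departed furthest, as it did over all genes, with 3 of the 8 lower and 4 higher, where 30.1% of all genes were lower and 16.5% higher. The share of members higher in JGEO and the share lower in JGESO thus lie near those of all genes. Snai1 (16.3 and 109, 2.66), Prrx2 (14.4 and 57.8, 1.93), Twist2 (12.4 and 40.3, 1.62) and Twist1 (70.8 and 215, 1.59) were higher. Prrx1 (22.6 and 5.41, -1.88), Zeb2 (3.91 and 0.426, -1.78) and Zeb1 (4.40 and 1.401, -1.17) were lower, so both Zeb genes moved against both Twist genes in this set. Prrx1 was lower than in JGE in all 3 other sets. These 3 comparisons share the JGE library, so a chance deviation in it would enter all of them. Since the JGES libraries are those of the time course, a difference between experiments cannot be told apart from one of Sall4 in JGES against JGE.

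**Figure D2:**
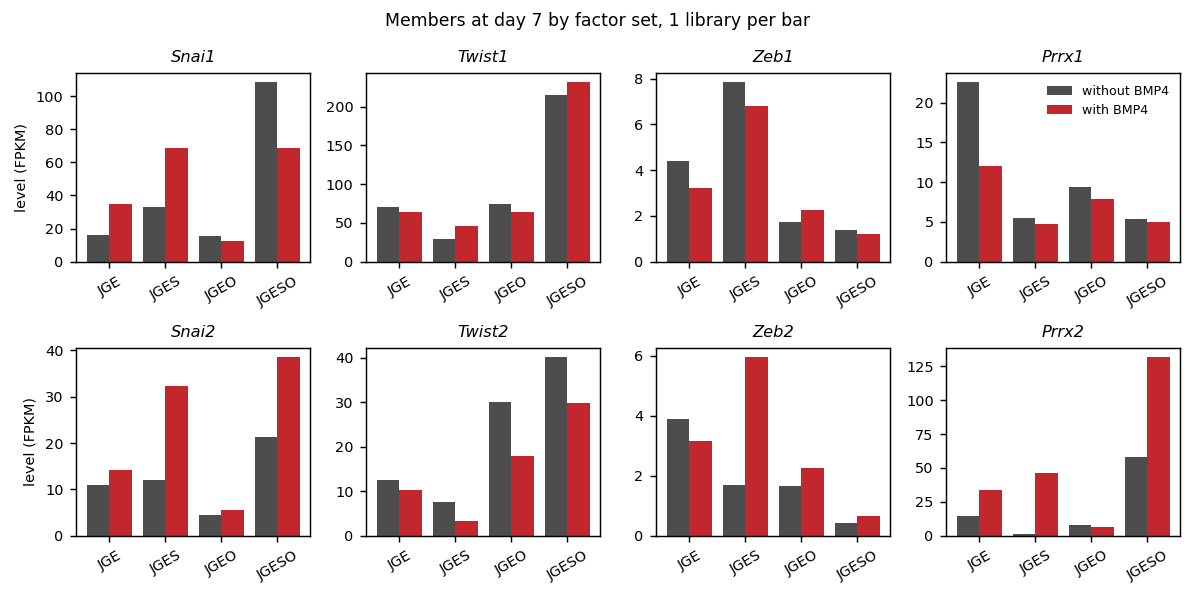
FPKM (vertical axis, linear, from 0) of each factor at day 7 in JGE, JGEO, JGESO and JGES cells, with 1 bar per library and BMP4- and BMP4+ side by side. Twist1 stands at 215 and 231 in JGESO against 28.9 to 74.2 in the other sets, and Prrx2 is higher with BMP4 in JGE, JGESO and JGES and not in JGEO.

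The comparison of SALL4-delN12 with SALL4-WT asks what the NuRD-binding peptide contributes when SALL4 acts alone. On no day was any of the 8 factors higher past 2-fold with SALL4-delN12. At day 1, 2 were lower (5.63% of all genes lower, 4.18% higher), at day 5 it was 3 (5.19% and 4.67%), at day 9 it was 5 (5.75% and 6.09%) and at day 11 it was 3 (6.58% and 6.55%). Median differences of the 8 were -0.77, -0.82, -1.22 and -0.73 on the 4 days. At a call of 1.5-fold, 5, 6, 5 and 5 were lower, beside 12.4%, 11.8%, 12.3% and 15.4% of all genes, so no order of the days is read from these counts.

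Prrx1 and Snai2 were lower with SALL4-delN12 on all 4 days. Prrx1 was listed at 28.1, 41.1, 43.9 and 47.3 with SALL4-WT on days 1, 5, 9 and 11, and at 10.5, 12.9, 10.3 and 12.6 with SALL4-delN12, so that every SALL4-WT library lay above every SALL4-delN12 library. Its differences were -1.34, -1.60, -1.99 and -1.83. Snai2 was at 12.5, 84.7, 56.9 and 71.1 with SALL4-WT and at 5.63, 18.6, 17.1 and 29.9 with SALL4-delN12 (-1.03, -2.13, -1.68 and -1.22). It rose over the course with either form, and the groups overlap because the SALL4-WT level of day 1 is low. Zeb2 was at 6.94, 7.63, 9.98 and 11.1 against 3.28, 4.15, 3.91 and 3.94, with no overlap, and passed 2-fold on days 9 (-1.16) and 11 (-1.29). Twist1 was at 47.0, 118, 123 and 114 against 28.1, 51.6, 45.9 and 62.4 and passed 2-fold on days 5 (-1.17) and 9 (-1.40). Snai1 was at 83.9, 105, 150 and 78.0 against 67.3, 64.0, 61.4 and 59.5 and passed on day 9 alone (-1.28). How many of all genes separate the 2 forms without overlap was not counted, and days of a course are not replicates.

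The paralogs of these genes differed less. Zeb1 was at 8.74, 7.79, 5.73 and 9.33 with SALL4-WT and at 6.79, 6.33, 5.46 and 5.87 with SALL4-delN12, with differences from -0.59 to -0.06. Prrx2 was at 160, 218, 214 and 153 against 90.0, 117, 167 and 143 (-0.89 at its widest). Twist2 had the opposite sign on every day, at 148.6, 111, 135 and 71.6 against 215, 129, 178 and 90.9, and stayed under 2-fold (0.22 to 0.53). Day 11 and day 1 of each form differed in the same 3 factors. In SALL4-WT 2 of 8 rose and 1 fell (11.5% and 8.76% of all genes), and in SALL4-delN12 also 2 rose and 1 fell (10.4% and 4.61%). Snai2 rose (2.42 and 2.22), Twist1 rose (1.26 and 1.12) and Twist2 fell (-1.04 and -1.23), while the level of each form at day 1 differed as given above.

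**Figure D3:**
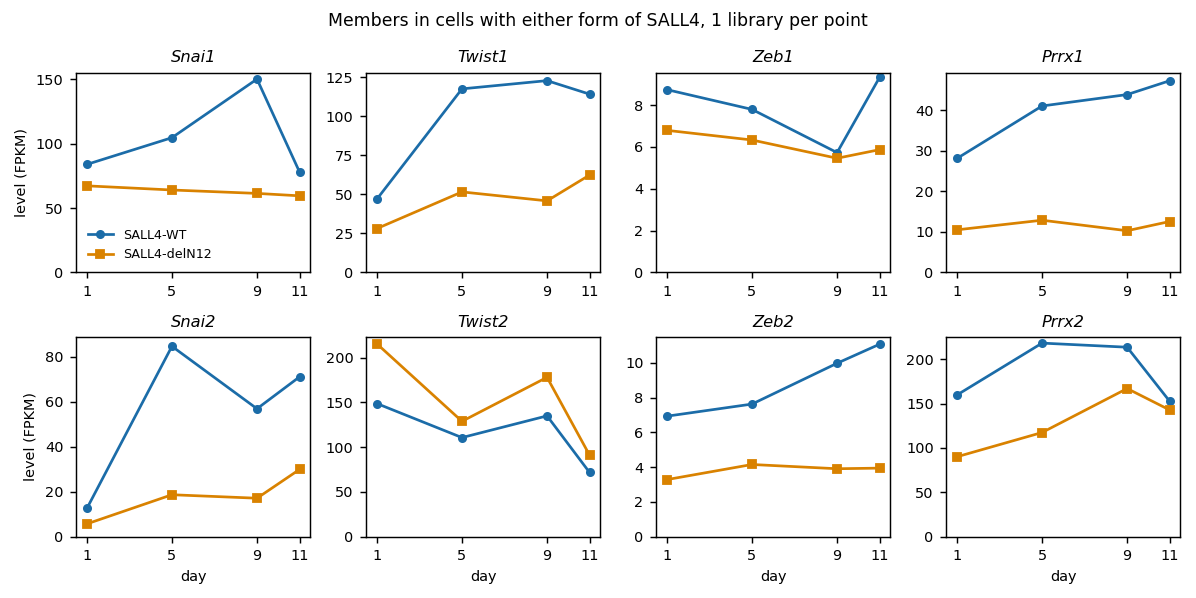
FPKM (vertical axis, linear, from 0) of each factor against day (horizontal axis) for SALL4-WT and SALL4-delN12 as the only factor, 1 library per point. Prrx1 stays between 10.3 and 12.9 with SALL4-delN12 and between 28.1 and 47.3 with SALL4-WT, and Twist2 lies higher with SALL4-delN12 on each day.

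Genes around these factors were described with 4 fixed lists of 20 epithelial targets, 20 mesenchymal effectors, 25 partners and inputs and 33 other mesenchymal factors. In JGES cells without BMP4 from day 0 to day 7, 15 of 18 epithelial targets rose and none fell (median 1.96). Of the 18, 11 were under an FPKM of 1 on day 0 and entered through day 7, so they could not be counted as lower, and of the other 7 targets 4 rose and none fell. Epcam, an epithelial adhesion molecule, was listed at 0 on day 0 and at 40.1 on day 7, and the tight-junction claudins Cldn6 and Cldn4 were at 0 and 17.3 and at 0.741 and 28.2. Of 19 mesenchymal effectors 16 fell and none rose (median -2.88). The contractile genes Acta2 (983 and 7.66) and Tagln (1228 and 21.6) and the collagen crosslinker Lox (90.8 and 0.618) fell most. Of 25 partners and inputs 8 fell and 2 rose (median -0.03, where the median of all genes was 0.26). On day 0, 1 of the 25 was under an FPKM of 1 and could not be counted as lower, and among the other 24, 8 fell and 1 rose. In this list Tgfb3, a TGF-beta ligand, went from 90.4 to 8.78, the Twist partner Hand2 from 7.81 to 0.852, and Snai3, the third Snai gene, from 0 to 2.44. Of 30 other mesenchymal factors 13 fell and 1 rose (median -0.46). On day 0, 3 of the 30 were under an FPKM of 1, and among the other 27, 13 fell and 1 rose. Osr1 (54.8 and 1.52), Foxd1 (20.5 and 1.55) and Tbx15 (26.6 and 3.67), all factors of embryonic mesenchyme, differed most. The same background of 10.4% lower and 22.2% higher applies to these lists.

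With BMP4 against without at day 7 of JGES, 13 of 19 mesenchymal effectors were higher and none lower (median 1.69), beside 9 of 20 epithelial targets higher and 2 lower (median 0.51), where 10.3% of all genes rose and 13.8% fell. Without BMP4, 1 of these effectors and 2 of these targets were under an FPKM of 1 and could not be counted as lower. Among the other 18 effectors 12 were higher and none lower, and among the other 18 targets 7 were higher and 2 lower. On days 1, 3 and 5 the median difference was 0.28, 1.397 and 1.63 for the effectors and -0.87, -0.76 and -0.37 for the epithelial targets, over 19 effectors each day but over 12, 13 and 19 targets, which are not 1 set of genes. Partners and inputs had 7 of 25 higher and 3 lower (median 0.11), and other mesenchymal factors had 7 of 29 in each direction (median 0.22). Of these, 2 partners and inputs and 4 other factors were under an FPKM of 1 without BMP4 and could not be counted as lower. Among the other 23 partners and inputs 5 were higher and 3 lower. Among the other 25 mesenchymal factors 4 were higher and 7 lower. The following genes were named for their textbook role after their values were known. Id1 and Id3, inhibitors of E proteins and direct BMP targets, were at 65.0 and 240 (1.87) and at 82.8 and 199 (1.25). Cdh1 was at 43.9 and 27.6 (-0.65). Set against day 0, the BMP4+ cells of day 7 had 18 of 19 epithelial targets higher and 1 lower (median 1.79), of which 12 were under an FPKM of 1 on day 0 and could only be counted as higher (6 higher and 1 lower among the other 7), and 11 of 19 effectors lower and 1 higher (median -1.32), where 17.5% of all genes rose and 9.47% fell. Of partners and inputs 2 of 24 were lower and 1 higher (median -0.25), and of other mesenchymal factors 14 of 30 were lower and 4 higher (median -0.69). On day 0, 3 of these 30 factors were under an FPKM of 1, and among the other 27, 14 were lower and 4 higher.

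At day 11 of the SALL4 forms, 14 of 19 epithelial targets were higher with SALL4-delN12 and none lower (median 1.79), where 6.55% of all genes rose and 6.58% fell. With SALL4-WT 7 of the 19 were under an FPKM of 1 and could not be counted as lower, and of the other 12 targets 9 were higher. Cldn6 was at 2.42 with SALL4-WT and 75.7 with SALL4-delN12, Cldn7 at 1.51 and 32.0, and the keratin Krt19 at 10.0 and 77.6. Mesenchymal effectors were split, with 6 of 20 lower and 2 higher (median -0.47). Fibronectin (Fn1) was at 958 and 87.4, Lox at 74.5 and 6.48 and periostin (Postn) at 118 and 18.6. Of 24 partners and inputs 1 was lower and 1 higher (median -0.15). With SALL4-WT 1 of the 24 was under an FPKM of 1 and could not be counted as lower. Among the other 23, 1 was lower and none higher. Hand1 was at 0.152 and 1.43, the TGF-beta receptor Tgfbr2 at 74.9 and 36.8 and the E protein Tcf4 at 11.8 and 6.16 (-0.84). Of 26 other mesenchymal factors 9 were lower and 3 higher (median -0.75). With SALL4-WT 1 of the 26 was under an FPKM of 1, and among the other 25, 9 were lower and 3 higher. Alx4 (2.65 and 18.3) and Six2 (3.27 and 12.8) were higher and Hic1 (11.2 and 3.36) was lower.

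The single-cell samples are JGES cells of day 7, 1 without and 1 with BMP4, with cell types as the deposited column names give them. Without BMP4 there were 8685 cells, of which 6211 were labelled intermediate state, 1825 pluripotent, 507 endothelial and 142 ParE. With BMP4 there were 11335 cells, of which 7125 were labelled intermediate state, 2372 ParE, 1453 endothelial and 385 placenta-like. ParE is read here as the study's primitive-endoderm-like cells, and the label is not spelled out in the file. Median UMI counts per cell ranged from 11562 to 15444 without BMP4 and from 19594 to 28906 with it, so the depth differs with BMP4 in every type that both samples hold. The samples share 2 cell barcodes. The marker lists followed the labels. Of 6 primitive-endoderm genes all 6 were measured, and they summed to 954 and 1353 CPM (UMIs of a gene scaled to the summed UMIs of that type and sample) in ParE cells without and with BMP4, against 9.2 to 76.9 in the other types. The 6 endothelial genes summed to 263 and 596 CPM in endothelial cells, against 8.8 to 31.1. The 6 pluripotency genes summed to 7013 in pluripotent cells, against 7.8 to 865, and Dppa5a was the main one of them in each type without BMP4. The 6 placenta-like genes summed to 3097 in placenta-like cells, against 67.2 to 947. Fibroblast genes, 8 in all, set the intermediate state apart with BMP4, at 1018 CPM against 94.6 to 208 in the other types, but little without it, at 119 against 20.9 to 101.

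Each of the 8 factors was summed over the cells of a type and is given in CPM, with 95% exact Poisson intervals that cover counting error only and not the spread between cultures. Without BMP4, the intermediate state held the highest level of 5 factors. Prrx2 stood at 53.5 there (52.0 to 55.1), against 12.7 in endothelial, 6.84 in pluripotent and 2.12 in ParE cells. Prrx1 stood at 39.0 against 6.18, 4.52 and 4.23 in the same order, and Twist1 at 42.9 against 9.86, 6.00 and 5.82. Snai2 stood at 41.5 (against 5.70, 5.96 and 5.29) and Twist2 at 21.3 (against 8.67, 2.86 and 2.12). The intermediate state was thus at the top for all 5. The endothelial, pluripotent and ParE levels of Snai2 did not differ beyond their intervals.

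The other 3 were not highest in the intermediate state alone. Snai1 stood at 17.1 in the intermediate state and at 20.1 in ParE cells, where the interval (14.2 to 27.6) overlaps that of the intermediate state (16.2 to 18.0), and at 13.3 in endothelial cells. Zeb1 stood at 23.6 in intermediate and 23.9 in endothelial cells, which did not differ beyond their intervals, and at 13.1 in pluripotent cells. Zeb2 was higher in endothelial cells (20.9, 17.9 to 24.2) than in the intermediate state (13.6, 12.8 to 14.4). In pluripotent cells, which stand here for a type with little of these factors, 7 of the 8 lay at 0.116 to 0.144 of their intermediate-state level, a nearly common ratio. Free RNA in droplets gives such a common ratio when it comes from 1 source, and its part here was not tested. Zeb1 lay outside it, at 0.555 (0.497 to 0.620) of the intermediate level.

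With BMP4, the intermediate state again had the highest level of 6 factors in CPM. Prrx2 stood at 141 there, 55.6 in placenta-like, 23.04 in endothelial and 18.3 in ParE cells. Twist1 stood at 96.5, 6.99, 22.6 and 20.2 in the same order, Snai2 at 56.6, 5.47, 5.90 and 9.73, and Prrx1 at 40.5, 3.54, 3.84 and 2.75. Snai1 stood at 27.6, 7.66, 14.2 and 4.43, and Twist2 at 3.93, 0.505, 0.429 and 0.440. Placenta-like cells thus held Prrx2 at 0.395 of the intermediate level but Prrx1 at 0.0873 and Twist1 at 0.0724. Both Zeb genes were highest in endothelial cells. Zeb2 stood at 67.6 in endothelial, 54.1 in intermediate, 28.9 in placenta-like and 23.7 in ParE cells, and Zeb1 at 30.7, 26.6, 9.09 and 11.9. Neighbouring levels of Zeb2 in this order did not overlap in their intervals.

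Some cells labelled endothelial carried macrophage RNA, a cell type known for Zeb2. The 10 macrophage genes summed to 71.0 and 134 CPM in endothelial cells without and with BMP4, against 1.6 to 26.4 in the other types. Tyrobp was at 48.1 and 29.7 CPM and Lyz2 at 10.8 and 47.8, while Adgre1 was at 0 without BMP4 and Ptprc, a defining gene of blood cells, was at 0.356 and 0.945. In an alternative added after the data were seen, endothelial cells with no UMI of any of the 10 genes were taken alone, which left 411 of 507 and 1130 of 1453 cells. Zeb2 then stood at 17.3 and 68.7 CPM and Zeb1 at 26.1 and 31.9. Without BMP4 the interval of Zeb2 in these cells (14.3 to 20.8) overlapped that of the intermediate state (12.8 to 14.4). Genes of neural crest and Schwann cells summed to 3.6 to 13.8 CPM over all types, and those of skeletal muscle to 0 to 3.3.

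Within the intermediate state, 3 of the 8 factors rose past 2-fold with BMP4 and 1 fell. Over all genes with a CPM of at least 5 in either sample, 29.0% rose and 5.77% fell, so the share of members higher lies near that of all genes. The factors that rose were Zeb2, 3.99 times as high (3.75 to 4.25), Prrx2, 2.63 times (2.55 to 2.72) and Twist1, 2.25 times (2.17 to 2.33). Twist2 was 5.43 times lower (4.95 to 5.95). Snai1 was at 1.62 times, Snai2 at 1.36 and Zeb1 at 1.13. Prrx1 was at 1.04 times, with an interval of 0.995 to 1.08. The intermediate cells with BMP4 had 19594 UMIs per cell in the median and those without had 11892, and the median ratio of all genes was 0.41 on the log2 scale. Scaled to that median, Zeb2 alone of the 8 passed 2-fold upward (2.996 times), Prrx2 was at 1.98 and Twist1 at 1.69, and Prrx1 and Zeb1 moved to 0.780 and 0.848. Of the other lists, 14 of 19 mesenchymal effectors were higher with BMP4 in intermediate cells and none lower, 4 of 10 epithelial targets higher and none lower, 10 of 23 partners and inputs higher and 1 lower, and 8 of 18 other mesenchymal factors higher and 5 lower. Cells labelled intermediate differed in their fibroblast genes between the samples as given above, so this label need not mean the same mixture in both.

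In endothelial cells 2 of the 8 rose and 1 fell (25.0% and 4.55% of all genes). Zeb2 was 3.23 times as high with BMP4 (2.77 to 3.79) and Twist1 2.29 times (1.83 to 2.91), and Twist2 was 20.2 times lower (11.5 to 37.9) on 73 and 15 UMIs. In the endothelial cells without macrophage UMIs it stood at 10.6 and 0.304 CPM, on 70 and 8 UMIs, a wider gap. Scaled to the median of all genes, 1 rose and 2 fell. In ParE cells 6 factors were tested, of which 4 rose and 1 fell (26.9% and 5.33% of all genes). Of those that rose, Zeb1 (4.76 CPM), Prrx2 (2.12) and Zeb2 (1.59) were under 5 CPM without BMP4. They entered through the sample with BMP4 and could not be counted as lower. Prrx2 was 8.66 times as high (3.37 to 31.8), Twist1 3.47 times (1.93 to 6.97) and Zeb1 2.49 times (1.30 to 5.47). Without BMP4, Twist1 rests on 11 UMIs, at 0.136 of its intermediate-state level, and Zeb1 on 9 UMIs. Scaled to the median ratio of all genes Zeb1 was at 1.80 times, under 2-fold, and 3 rose. Prrx2 rests on 4 UMIs without BMP4, and with BMP4 it stood at 0.1302 of its intermediate-state level. These ratios in ParE cells with BMP4 ran from 0.0680 (Prrx1) to 0.445 (Zeb1). The common ratio of the pluripotent cells above, 0.116 to 0.144, is from the sample without BMP4. Whether the Prrx2 and Twist1 counts are expression in ParE cells was not tested. Zeb2 was at 15.0 times with a counting interval of 5.11 to 72.6, because the 142 ParE cells without BMP4 held 3 UMIs of it. Snai1 was 4.54 times lower with BMP4 in ParE cells (3.14 to 6.39), at 20.1 and 4.43 CPM, where it was 1.62 times as high in the intermediate state. Twist2 and Prrx1 were under 5 CPM in both ParE samples and were not tested.

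**Figure D4:**
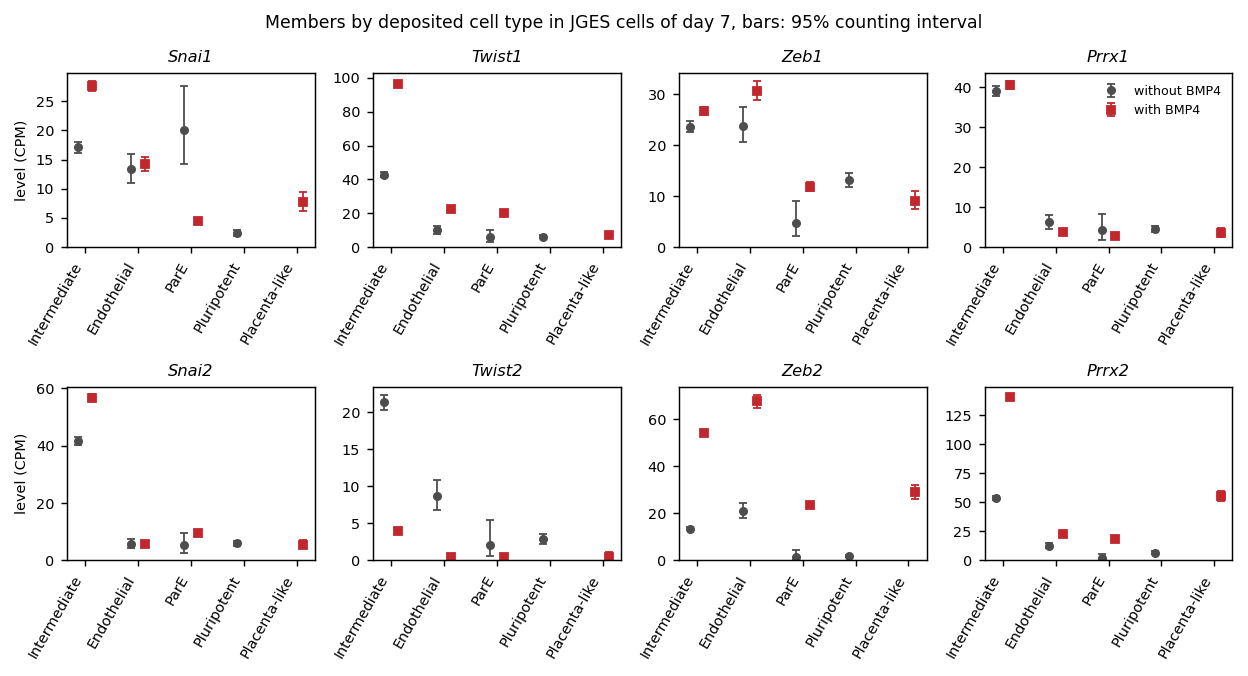
CPM (vertical axis, linear, from 0) of each factor by deposited cell type (horizontal axis) in JGES cells of day 7 without and with BMP4, each point being the sum over the cells of 1 type in 1 sample and each bar its 95% counting interval. Prrx2 peaks in the intermediate state at 53.5 and 141, Zeb1 and Zeb2 are as high or higher in endothelial cells, and Twist2 is lower with BMP4 in each type present in both samples.

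To compare cells at equal depth, each cell was thinned to 4000 UMIs, which dropped none. Prrx2 was then detected in 13.6% of intermediate cells without and 28.3% with BMP4 (26.3% and 51.4% before thinning), in 15.1% of placenta-like cells (46.5%) and in 1.97% of pluripotent cells (6.90%). Zeb2 was detected in 5.10% and 16.6% of intermediate cells and in 7.30% and 21.6% of endothelial cells, against 0.712% of pluripotent cells. Twist2 was detected in 6.91% and 1.12% of intermediate cells, and the latter share lies at that of the pluripotent cells (1.26%). Prrx1 was detected in 13.5% and 10.9%, a share that goes against its CPM, and no order is read from it. Median depths before thinning were 11892 and 19594 UMIs in intermediate and 15444 in pluripotent cells.

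The number of the 8 factors seen per thinned cell had a median of 1 in the intermediate state in both samples and of 0 in each other type. At least 3 factors were seen in 6.89% of intermediate cells without BMP4 (exact binomial 95% interval 6.27 to 7.55) and in 15.3% with it (14.5 to 16.2), against 31.8% and 55.1% before thinning. The other types lay between 0.329% and 1.51%. In intermediate cells the joint share of the paralogs of each pair lay above the product of their shares, by amounts for which no interval was computed. For Prrx1 and Prrx2 in intermediate cells the joint share was 2.96% against a product of 1.83% without BMP4, and 6.86% against 3.08% with it. In the latter sample 489 cells held both, 288 held Prrx1 alone and 1525 held Prrx2 alone. For the Snai pair the values were 1.27% against 0.758% and 2.61% against 1.69%. For the Zeb pair the values were closer, 0.531% against 0.460% and 2.08% against 1.70%. The Twist pair was at 1.24% against 0.886% and at 0.309% against 0.254%, the latter on 22 cells with both. Cells of 1 sample are not replicates, and these shares are descriptions of 2 samples.

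The single-cell and bulk samples of day 7 carry the same labels and can be set side by side. Summed over all analysed cells, Prrx2 was at 38.7 CPM without and 93.8 with BMP4, 2.42 times as high, where the bulk libraries gave 26.2 times. Zeb2 was 4.31 times as high against 3.48 in bulk, Twist1 2.10 against 1.58, Snai1 1.48 against 2.07 and Snai2 1.24 against 2.68. Twist2 was 6.22 times lower against 2.26 in bulk. The direction of these 6 was the same in both assays, and the size differed most for Prrx2. Zeb1 was 1.11 times as high over all cells, where it was lower with BMP4 in bulk (8.05 and 6.97), and Prrx1 was at 0.913 times and lower in both (5.58 and 4.84 in bulk). What lies behind the difference in size was not tested.

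ATAC-seq marks open chromatin, here as peaks that the authors called per library with a score of at least 50 (minus 10 times log10 of p, from the peak caller). A locus is the gene with 10 kb on either side. MEFs had 83 peaks at the 8 loci. A peak was found at 34, 43, 43 and 44 of them (41.0%, 51.8%, 51.8% and 53.0%) on days 1, 5, 9 and 11 with SALL4-WT, and at 35, 37, 40 and 39 (42.2%, 44.6%, 48.2% and 47.0%) with SALL4-delN12. Of all 125470 MEF peaks, the share without a peak was 60.9%, 51.1%, 51.9% and 51.1% with SALL4-WT and 51.9%, 54.3%, 50.8% and 56.8% with SALL4-delN12. The 8 loci together therefore kept MEF peaks at close to the rate of the whole genome with either form. Libraries differ in their number of peaks, from 78517 (SALL4-delN12 day 11) to 98422 (SALL4-WT day 5) against 125470 in MEFs, and depth is unknown.

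The loci differed among themselves. At Prrx1, which had 18 MEF peaks, 4, 6, 9 and 8 were found again with SALL4-WT and 6, 4, 5 and 3 with SALL4-delN12. In all, Prrx1 had 6, 10, 11 and 13 peaks with SALL4-WT on days 1, 5, 9 and 11. With SALL4-delN12 it had 11, 8, 8 and 4, so the order was reversed on day 1 and the gap was widest on day 11. The peak over its start site (chr1:163313185-163313938, which overlaps the window printed above) scored 327 in MEFs, 65.0, 74.2, 58.0 and 165 with SALL4-WT, and was found with SALL4-delN12 on day 9 alone (78.4). Sites next to it were open with SALL4-delN12 on other days, 1 at -457 bp from the start on days 1 and 5 (74.6 and 59.2), 1 at -860 bp on day 1 (83.0) and 1 at 1322 bp inside the gene on days 5 and 11 (52.3 and 96.7). Zeb1 had 10, 13, 14 and 12 peaks with SALL4-WT on the same days and 9, 7, 8 and 4 with SALL4-delN12. The SALL4-delN12 library of day 11 had the fewest peaks of all libraries. At Prrx2 the numbers of day 11 were close, 11 and 12, and 10 and 12 of its 16 MEF peaks were found on that day. On day 11 Zeb2 had 16 and 18 peaks, Snai1 4 and 8, Twist2 6 and 4, Twist1 2 and 2 and Snai2 1 and 2. The start sites of Snai1, Snai2 and Twist1 were open in all 9 libraries, with scores of 378 to 1398, 542 to 1712 and 161 to 948. A start site of Twist2 (149 to 604), Zeb1 (73.5 to 326) and Zeb2 (82.5 to 355) was also open in all 9.

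**Figure D5:**
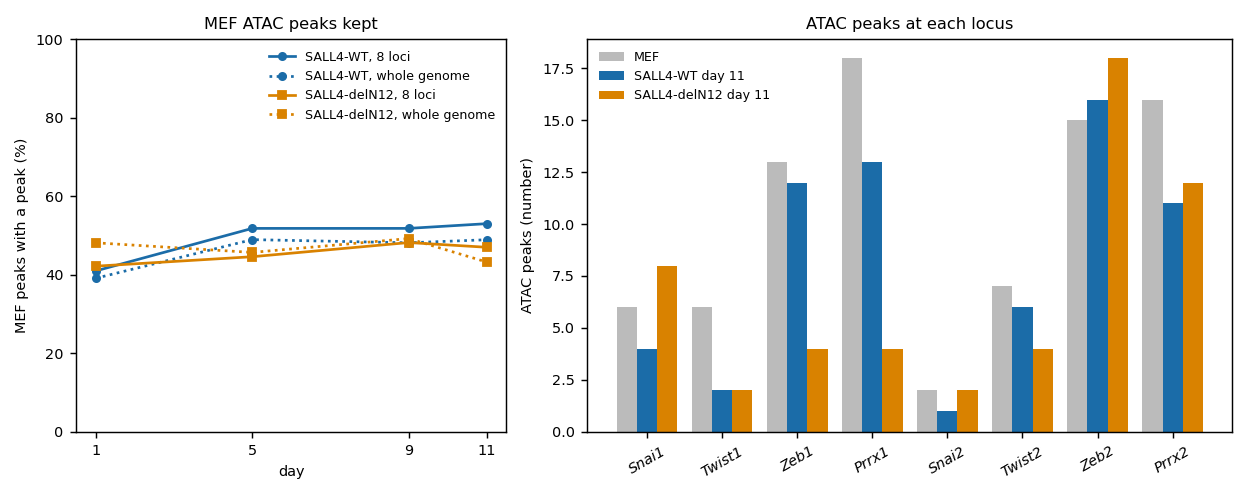
On the left, the percentage of MEF ATAC peaks with a peak (vertical axis, 0 to 100) on each day with SALL4-WT or SALL4-delN12, for the 8 loci and for all MEF peaks. On the right, the number of ATAC peaks at each locus on day 11, 1 library per bar, where Prrx1 has 13 against 4 and Zeb1 12 against 4. Both gaps are wider than on the earlier days.

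Merged over the 9 libraries, the loci held 121 sites, of which 79 were open in MEFs and 19 in all 9 libraries. On day 11, 26 of the 121 were open with SALL4-WT and not SALL4-delN12, beside 14.7% of all 210390 sites, and 10 the other way, beside 9.21%. Of the 26, 9 lay at Prrx1 and 7 at Zeb1. Open in all 4 SALL4-WT libraries and in no SALL4-delN12 library were 4 of the 121 sites, 3 at Zeb1 and 1 at Prrx1, beside 0.833% of all sites. The reverse pattern was at 0 of the 121, beside 0.856% of all sites. Scores at these Zeb1 sites were as low as 52.7, just above the minimum of 50. The Prrx1 site lies 1176 bp beyond the 3′ end of the gene and scored 67.4 in MEFs and 63.7, 76.0, 170 and 145 with SALL4-WT. No SALL4 or H3K27ac peak overlapped it. The 300 bases around its middle hold 1 SALL4 element, in capitals, and 1 general E-box, and no E-box of the SNAI form. Its GC content is 44.7%.
Prrx1 downstream site, chr1:163243610-163243909, plus strand: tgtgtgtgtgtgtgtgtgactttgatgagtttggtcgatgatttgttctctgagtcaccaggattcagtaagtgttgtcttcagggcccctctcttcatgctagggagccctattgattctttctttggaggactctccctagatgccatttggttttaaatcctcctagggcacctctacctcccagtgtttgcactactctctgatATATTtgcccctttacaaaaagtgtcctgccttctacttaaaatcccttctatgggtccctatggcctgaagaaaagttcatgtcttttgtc

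Cut&Tag on day 6 mapped SALL4 itself and H3K27ac, an acetylation of active promoters and enhancers that NuRD removes. With SALL4-WT, all 8 factors had a SALL4 peak within 2 kb of a start, where 57.3% of 21951 protein-coding genes did. With SALL4-delN12 it was 6 of 8, without Snai1 and Zeb1, beside 44.2%. At a score of at least 100 it was 4 with SALL4-WT (beside 44.0% of protein-coding genes) and 5 with SALL4-delN12 (beside 31.0%), so no order of the forms is read from these counts. Genes with many annotated starts, such as Zeb2 with 29, have more chances to hold such a peak. The highest promoter scores with SALL4-WT and SALL4-delN12 were 280 and 240 at Snai2, 226 and 231 at Prrx2, 187 and 146 at Twist1, 92.1 and 163 at Zeb2, 81.1 and 98.2 at Twist2 and 50.6 and 136 at Prrx1. At Prrx1 the scores belong to peaks at different starts. Snai1 (51.0) and Zeb1 (196) had theirs with SALL4-WT alone, the former next to the minimum score of 50. Of 52 SALL4 peaks at the loci with SALL4-WT, 29 overlapped one with SALL4-delN12 (55.8%, against 51.1% of all), and of 43 with SALL4-delN12 29 overlapped one with SALL4-WT (67.4%, against 52.1%). On MEF ATAC peaks lay 34 of the 52 (65.4%, against 59.2% of all) and 30 of the 43 (69.8%, against 65.0%).

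H3K27ac was found at the promoters of 7 of 8 factors with either form, where 50.9% (SALL4-WT) and 60.6% (SALL4-delN12) of protein-coding genes had a peak. Snai1 was the exception in both. The highest promoter score was higher with SALL4-delN12 in Twist1 (295 and 522), Zeb1 (142 and 431), Snai2 (181 and 385), Twist2 and Zeb2. In Prrx1 and Prrx2 the highest scores of the 2 forms lay at different starts. At the start that held a peak with both forms, Prrx2 scored 67.7 and 60.8, lower with SALL4-delN12. That library also had 45599 peaks against 19841, with a median score of 138 against 111, so scores of the 2 libraries are not on 1 scale. Snai2, lower in RNA with SALL4-delN12, had its promoter H3K27ac peak with both forms. Prrx1, also lower, had one over its main start with SALL4-WT (89.6) and none there with SALL4-delN12. Cut&Tag replicates were merged by the authors before peaks were called, and no spread can be given.

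Likeness of expression was described over the 17 libraries of the time courses as the Pearson correlation of log2(FPKM + 1) among 12351 genes that reached an FPKM of 5. These libraries share treatments and time courses, so a high r describes this set of libraries only. Genes most like Prrx1 were Rab32 and Osmr (r = 0.96 each) and Tsc22d1 (0.94), and most like Prrx2 were Serpinf1 (0.97), Ecm1 and Napa (0.96 each). Snai1 was most like Id1 and Tm4sf1 (0.93 each) and Ttc9 (0.92), and Snai2 most like Hacd4 (0.92), P4ha3 and Slc44a2 (0.90 each). Twist1 was most like Emilin2 (0.95), Tcf4 and Nrn1 (0.94 each), of which Tcf4 encodes an E protein, and Twist2 most like Gm38984 (0.97), Nsg1 (0.96) and Msln (0.95). Zeb2 was most like Wls (0.91), Fech and Efemp1 (0.90 each), and Zeb1, which moved least, had the lowest values, with Map4k3 (0.85), Vax2 (0.83) and Ctgf (0.79). Among the factors themselves the closest were Snai2 and Twist1 (0.89). Paralogs were not the closest partners, at 0.69 for Prrx1 and Prrx2, 0.66 for Snai1 and Snai2, 0.47 for Twist1 and Twist2 and 0.28 for Zeb1 and Zeb2. Zeb1 correlated with the other 7 at -0.06 to 0.33.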

How the data were processed

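Bulk RNA-seq, single-cell RNA-seq, ATAC-seq and Cut&Tag files were used as deposited, with 1 sample per condition. Per the submitters' processing notes and methods, the authors trimmed reads with Trim Galore 0.6.4 and mapped them to mm10. FPKM values were made by the authors with HISAT2 2.2.1 and StringTie 2.2.1, and whether strand was used is not given in the sources used here. Raw UMI counts per cell were deposited after STARsolo alignment to GENCODE vM21 and Scanpy filters, with sample and cell type in the column names, and how doublets were treated is not given in the sources used here. The authors mapped ATAC-seq and Cut&Tag reads with Bowtie2 2.4.5, filtered them with SAMtools 1.16.1 and called peaks with MACS 1.4.2, whose deposited score is minus 10 times log10 of p. ATAC peaks were called per library from short fragments with duplicates kept, and Cut&Tag replicates were merged first.

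From these, differences of log2(FPKM + 1) were taken over genes that reached an FPKM of 1 in a library compared, and 2-fold was the call. UMIs were summed per type and sample, and single cells were thinned to 4000 UMIs. Of 30769 cell columns, 20020 were used and 10749 of no mapped sample were not. Peaks were counted within 10 kb of a gene, promoters were 2 kb around annotated starts, and an overlap of 1 bp counted. Peak files held 0 peaks past a chromosome end and 10 sequence names that the reference lacks. Differences, sums and overlaps were checked on simulated data. No model was fitted. Python 3.11.15, numpy 2.4.6, pandas 2.3.3 and scipy 1.17.1 were used.

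The members and gene lists were chosen with earlier results of these data known. All 8 members are named, with the 3 genes most correlated with each over the 17 time-course libraries and the 3 genes of each other list with the largest difference in JGES day 7 against day 0 and in SALL4-delN12 against SALL4-WT at day 11. Alternatives changed the pseudocount, the filter, the scaling, the fold, the thinning depth, the overlap, the flanks, the promoter size and the score.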

Additional observations from a re-analysis of the deposited data

Results flagged for a closer look

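The difference of Snai1 with BMP4 had opposite signs in pairs of settings, and none of these differences was tested, since each setting has 1 sample per arm. Its log2 difference was 1.06 in JGE and -0.65 in JGESO, a gap of 1.72, but the JGESO value did not pass 2-fold. It was 1.03 in JGES at day 7, a gap of 1.68 from JGESO, and both gaps share the JGESO libraries. Within the JGES cells of day 7, Snai1 was 1.62 times as high with BMP4 in the intermediate state and 4.54 times lower in ParE cells, a gap of 2.88 on the log2 scale. The ParE value without BMP4 rests on 38 UMIs in 142 cells. No explanation of these gaps was tested.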

How the results depend on the processing

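No called result changed direction under any alternative. Among values not past 2-fold, median-ratio scaling turned Twist2 with BMP4 in JGES day 5 (to 0.12), Twist1 in JGEO against JGE (0.07 to -0.00017), Zeb1 and Prrx1 in the intermediate state (to 0.848 and 0.780) and Snai1, Snai2 and Zeb1 in endothelial cells (to 0.787, 0.762 and 0.948), and without the 6% of cells with most UMIs endothelial Snai1 and Snai2 turned (to 0.986 and 0.846). Without a filter the median over the factors for BMP4 in JGESO turned from -0.10 to 0.0039. Of 279 alternative values for the main results 249 stayed within the limits set, and of 392 for single genes 372 did. With a call at 1.5-fold, the factors counted lower became 5 in JGES BMP4+ day 1 against day 0, 5 in JGES and in JGEO against JGE, 5, 6 and 5 in SALL4-delN12 against SALL4-WT on days 1, 5 and 11, and 1 with BMP4 in JGES days 3 and 7, JGE, JGEO and JGESO. Those counted higher became 4 in SALL4-WT day 11 against day 1, 4, 5 and 4 with BMP4 in JGES days 1, 3 and 5, 2 in JGESO and 2 in JGES against JGE. With a pseudocount of 0.1, 2 were higher with BMP4 in JGES day 5, 1 was lower at day 7, 1 was higher in JGES against JGE and 4 were lower in JGEO against JGE. Median-ratio scaling gave 3 higher with BMP4 in JGES day 5, 1 higher in the intermediate state, and 2 lower and 1 higher in endothelial cells, where leaving out the 6% of cells with most UMIs also gave 1 higher. The same scaling took 3 more values past 2-fold. These were Prrx1 in JGES BMP4+ day 1 against day 0 (-1.01), Zeb1 in JGEO against JGE (-1.02) and Snai2 in JGESO against JGE (1.02). Thinned to 2000 UMIs, the median number of factors per intermediate cell was 0 in both samples. At a minimum overlap of 50%, 31.3% of MEF peaks at the loci were found in SALL4-delN12 day 1. At a score of at least 100, 4 promoters held a SALL4 peak with SALL4-WT and 5 with SALL4-delN12. The cause of these shifts was not tested. No replicate could be left out. No paired analysis was run, since each condition has 1 sample. Arms that match by day were compared day by day, and days of a course are not replicates. Median ratios of all genes beyond 0.1 (log2) were 0.13, 0.23 and 0.18 on days 3, 5 and 7 against day 0 without BMP4, -0.17 and -0.12 for BMP4 on days 5 and 7, -0.13 for JGESO against JGE, and 0.41, 0.44 and 0.46 within the 3 cell types.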
